A study of Mus musculus with 11 samples.

Results

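The retinoic acid genes described here are 8 of the 16755 genes measured, and they cover the synthesis of retinoic acid (*Aldh1a2*, *Aldh1a3*), its breakdown (*Cyp26b1*), its binding in the cytoplasm (*Crabp1*, *Crabp2*) and its nuclear receptors (*Rara*, *Rarb*, *Rarg*). The members were taken by gene symbol, and all 8 were listed with a value in each of the 11 libraries. Retinoic acid is made from vitamin A by retinaldehyde dehydrogenases and is oxidized to inactive products by the Cyp26 enzymes, so that the cells holding either enzyme shape where the signal is present. Cellular binding proteins carry it in the cytoplasm, and the retinoic acid receptors bind DNA with an RXR partner and switch target genes on or off according to whether the ligand is bound. In the embryonic face and mouth, both a lack and an excess of retinoic acid are known to disturb development, and the tooth germ is one of the organs in which its enzymes and receptors have been studied.

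Poly-A RNA was sequenced from tooth germs of the upper molar at E14.5, the cap stage, in a study of tooth number and shape under loss of the ciliary kinase gene *Cilk1*. The 3 genotypes were wild type (*Cilk1*+/+, 4 libraries), *Cilk1*-/- (4 libraries) and *Cilk1*-/-;PCS1-MRCS1 knockout, called the compound mutant here (3 libraries). *Cilk1*-/- embryos lack exon 6 in every cell, after germ-cell deletion of the floxed allele by *EIIa-Cre*, and the compound mutant carries in addition a homozygous deletion between the elements PCS1 and MRCS1, a stretch that holds enhancers of *Shh* in the oral epithelium. All groups were on a C57BL/6 background, sexes were mixed, and each library held material from 6 units, of which the sources do not say whether they are tooth germs or embryos. Every compound mutant lacks *Cilk1* as well, and there was no group with the PCS1-MRCS1 deletion alone.

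Values are given on the deposited log2 scale, which lies near log2(value + 1) of what is probably FPKM, a level per gene length, so that differences understate the change of low genes. It is not that scale alone, since 257 genes had a value below 0 in at least 1 library, and the step that gave these is not given in the sources used here. Sums and shares on a linear scale were computed as if the values were log2(value + 1), and are approximate for that reason. The deposited values carry no read counts, so the depth of each library is unknown. *Cilk1*, listed as *Ick*, lay between 3.45 and 3.60 in the wild-type libraries, between 2.72 and 2.86 in *Cilk1*-/- and between 2.60 and 2.67 in the compound mutant. It fell by 0.73 in *Cilk1*-/- (adjusted p = 0.000224, limma). The gene also fell by 0.89 in the compound mutant (adjusted p = 6.22e-05, limma). All markers of dental epithelium (5 genes) and dental mesenchyme (6 genes) were present in each genotype. The lowest was *Cdh1*, at a mean of 4.89 in the compound mutant. Summed on the linear scale, the dental epithelium markers reached 456 in compound mutant replicate 1 and 667 in replicate 2, below all other libraries, the next of which was at 780. Skeletal muscle sums of the compound mutant lay between 4.84 and 6.63, below all other libraries, the next of which was at 7.54. Oral keratinization sums were 26.5 and 24.9 in compound mutant replicates 1 and 2, below all other libraries, the next of which was at 48.5. Compound mutant replicate 1 stood apart from the other libraries on the first principal component of all genes, and replicate 3 on the second. Summed markers of cartilage reached 591 in compound mutant replicate 1 against at most 42.1 in any other library, on the linear scale. Summed markers of neurons were 215, 34.4 and 62.2 in compound mutant replicates 1 to 3. They lay between 17.9 and 24.1 in wild type and between 29.8 and 36.5 in *Cilk1*-/-. Every *Cilk1*-/- library was thus above every wild-type library, and compound mutant replicate 2 lay within the *Cilk1*-/- range. The erythroid sum of compound mutant replicate 3 was 1055, below all other libraries, the next of which was at 2786. In bulk RNA, fewer cells of a type and less RNA per cell cannot be told apart.

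Retinoic acid receptors bind a pair of short hexamer sites set in the same direction, and the DR5 element, with 5 bases between the hexamers, is their classical response element. RefSeq promoter windows of GRCm38.p6, from 250 bases before to 50 bases after the start site, were at hand for 6 of the 8 members and were searched on both strands for DR5, DR2 and DR1 elements. Among the members, 1 gene held an element, *Rarb*, with a DR5 at bases -53 to -37 from its start site. Of the other 34 pathway genes considered below, 24 had a window and 3 of these held an element. *Cyp26a1* held a DR5 at bases -32 to -16, read on the opposite strand, and *Rxrg* and *Bco1* held a DR1 each. The DR5 elements of *Rarb* and *Cyp26a1* are shown with 6 flanking bases on each side, since both genes are textbook targets of retinoic acid. The capitals mark the hexamers.
*Rarb* (chr14:16575507-16575535, minus strand): gggaagGGTTCAccgaaAGTTCActcgca
*Cyp26a1* (chr19:37697770-37697798, minus strand): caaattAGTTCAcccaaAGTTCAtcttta
The downstream hexamer had the same letters in both elements. A DR5 was found in 0.323% of the 32851 mouse promoter windows searched, a DR2 in 0.472% and a DR1 in 0.609%, so a match of this kind is uncommon among windows of this length but describes the sequence only.

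In wild-type molars, the 8 genes spanned about 3 units of the log2 scale, and the most abundant were a receptor, the main synthetic enzyme and a binding protein. *Rarg* had a mean of 5.79 ± 0.0408 (SD, n = 4), *Aldh1a2* of 5.70 ± 0.285 and *Crabp2* of 5.63 ± 0.123. These means lay at the 93.5th, 92.9th and 92.4th percentile of all genes. The libraries of *Aldh1a2* overlapped with those of both neighbours in the order. *Rara* (4.78 ± 0.0952), *Crabp1* (4.65 ± 0.255) and *Cyp26b1* (4.18 ± 0.284) followed, and each of these overlapped with the next. *Rarb* (3.37 ± 0.0771) and *Aldh1a3* (2.71 ± 0.317) were the lowest, with libraries that overlapped neither each other nor the genes above. The spread between wild-type libraries was smallest for the 3 receptors and largest for *Aldh1a3*, followed by *Aldh1a2* and *Cyp26b1*.

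**Figure D1:**
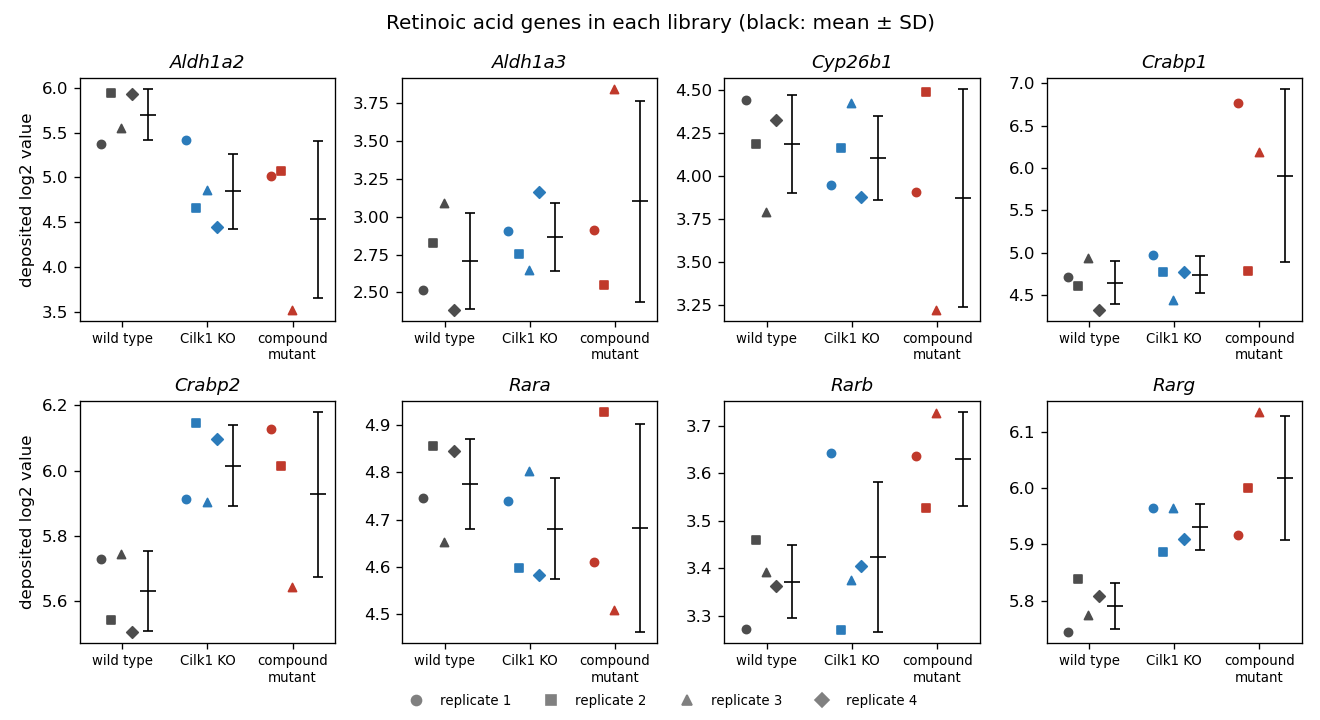
Level of each of the 8 genes on the deposited log2 scale (y axis, scaled per gene) in every library of wild type, *Cilk1*-/- and the compound mutant (x axis). Symbols give the replicate number and black bars the mean ± SD. The *Rarg* points of both mutants lie above all wild-type points, while *Aldh1a2* and *Crabp1* show compound mutant libraries far from one another.

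The first comparison addressed what loss of *Cilk1* changes in the molar. In *Cilk1*-/-, the lowest p-values among the members belonged to *Aldh1a2*, with a lower mean, and to *Crabp2* and *Rarg*, with higher means. None of the 3 passed an adjusted p under 0.05 over all genes. Of the 8 members, 0 passed that threshold with or without a fold change of at least 1.5 (limma), and 3 had an unadjusted p under 0.05. Among all genes, 2.44% had an adjusted p under 0.05, 0.370% passed with the fold change, and 20.7% had an unadjusted p under 0.05. The libraries did not overlap between the genotypes for 2 members, *Crabp2* and *Rarg*, against 20.9% of all genes. The median difference of the members was 0.072, and that of all genes was 0.0032. Wild-type and *Cilk1*-/- libraries of one replicate number deviated from their genotype means in opposite directions over all genes, so they are not independent, and p-values of this comparison treat them as if they were. Both libraries of a number also held the same number of genes at exactly 0 (55, 12, 17 and 0 for numbers 1 to 4). Whether the deposited values were adjusted within these pairs is not given and was not tested. If they were, the SDs and SEs of wild type and *Cilk1*-/- given here are too small. The SEs of the compound mutant comparisons would then be too small as well, since the genotypes share a common estimate of the spread.

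The second comparison set the compound mutant against the same wild-type libraries. *Rarg* was higher in the compound mutant and was the 1 member of 8 with an adjusted p under 0.05 (limma), where 6.58% of all genes passed. All 3 compound mutant libraries but only 1 of the 4 wild-type libraries have the second extraction text of the labels. The adjusted p was 0.164 with the replicate number as a block and 0.236 with the extraction text as a term (limma), so that the call was lost in both. Compound mutant replicates 1 to 3 have another extraction text than wild-type replicates 1 to 3, so the replicate block joins unlike libraries here. The *Rarg* fold of 1.17 on the deposited scale was under 1.5, so 0 members passed with the fold change (limma), against 1.25% of all genes. An unadjusted p under 0.05 was reached by 5 members, *Aldh1a2* with a lower mean and *Crabp1*, *Crabp2*, *Rarb* and *Rarg* with higher means, and by 26.7% of all genes. For 3 members the libraries did not overlap, with *Aldh1a2* lower and *Rarb* and *Rarg* higher, against 18.0% of all genes. The median difference of the members was 0.24 and that of all genes -0.0016.

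The third comparison addressed what the added PCS1-MRCS1 deletion changes when *Cilk1* is already lost. Here too, all 3 compound mutant libraries but only 1 of the 4 *Cilk1*-/- libraries have the second extraction text. The deletion and the extraction text are therefore only partly separated. Between the compound mutant and *Cilk1*-/-, the furthest member was *Crabp1*, with a mean higher by 1.17, and it missed the threshold. Of the 8 members, 0 had an adjusted p under 0.05 (limma), with or without the fold change, against 3.33% and 0.543% of all genes. An unadjusted p under 0.05 was reached by 2, *Crabp1* and *Rarb*, against 23.2% of all genes. The libraries overlapped for all 8 members, whereas they did not for 17.0% of all genes. The median difference of the members was 0.044, against 0.0028 for all genes.

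**Figure D2:**
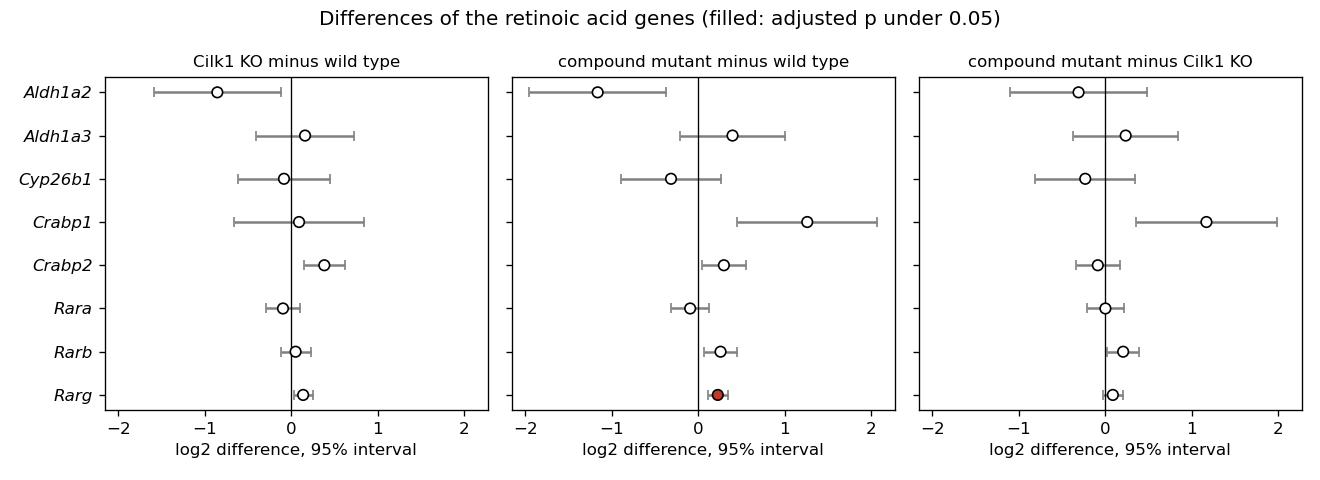
Difference in deposited log2 value between genotypes (x axis) for the 8 genes (y axis) in the 3 comparisons, with 95% intervals from limma. The filled point, *Rarg* in the compound mutant at 0.23, is the 1 member with an adjusted p under 0.05, and the intervals of *Aldh1a2* and *Crabp1* are the widest.

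*Aldh1a2* encodes the retinaldehyde dehydrogenase that makes most of the retinoic acid of the early embryo, and lies on chromosome 9 of GRCm38 (71215789 to 71296243, plus strand). It was at 5.37, 5.94, 5.55 and 5.93 in wild-type replicates 1 to 4. It was at 5.42, 4.65, 4.86 and 4.45 in *Cilk1*-/- replicates 1 to 4. In the compound mutant it was at 5.01, 5.07 and 3.52. *Cilk1*-/- replicate 1 lay within the wild-type range, while the other 3 *Cilk1*-/- libraries and all compound mutant libraries lay below it. The difference from wild type was -0.85 in *Cilk1*-/- (standard error, SE, 0.332, 95% interval -1.59 to -0.12, adjusted p = 0.179, limma). It was -0.64 among replicates 1 to 3 and -1.48 in replicate 4, which the labels describe with another extraction text. In the compound mutant the difference from wild type was -1.16 (SE 0.359, interval -1.96 to -0.37, adjusted p = 0.0766, limma). For *Cilk1*-/-, the exact two-sided permutation p was 0.0571 over all libraries and 0.25 when genotypes were swapped only within replicate numbers. The smallest possible p of the exact permutation test within replicate numbers was 0.125. The exact permutation test over all libraries treats same-numbered libraries as independent, which they are not. For the compound mutant, the exact two-sided permutation test over libraries gave p = 0.0286, the smallest that these library numbers allow.

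The adjusted p-values of *Aldh1a2*, and its differences in the compound mutant, depended on single compound mutant libraries, which enter the common estimate of the spread. The adjusted p (limma) of *Cilk1*-/- against wild type was 0.0394 without compound mutant replicate 3 and 0.0267 when only the wild-type and *Cilk1*-/- libraries were fitted. With the replicate block it was 0.319, with the compound mutant in block 4 it was 0.503, and with the extraction text as a term 0.243 (limma). The difference of the compound mutant from wild type was -0.66 without its replicate 3 (adjusted p = 0.111, limma) and -1.43 without its replicate 2 (adjusted p = 0.0319, limma). Between the mutants the difference was -0.31 (adjusted p = 0.639, limma), and it was 0.20 without compound mutant replicate 3. That library, the lowest of all 11 for *Aldh1a2*, had a dental mesenchyme marker sum of 455, and compound mutant replicate 1 had 400.5. The other libraries lay between 579.8 and 746, and the part of tissue makeup in the *Aldh1a2* values was not tested.

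*Aldh1a3*, another retinaldehyde dehydrogenase, found mainly in epithelia, lies on chromosome 7 (66390890 to 66427517, minus strand). It was at 2.52, 2.83, 3.09 and 2.39 in wild type and at 2.91, 2.75, 2.65 and 3.17 in *Cilk1*-/-. The compound mutant libraries were at 2.92, 2.55 and 3.84, and the last was the highest of the 11. The genotypes overlapped in each comparison, and the differences from wild type were 0.16 in *Cilk1*-/- (adjusted p = 0.775, limma), against 0.40 for the compound mutant (interval -0.21 to 1.01, adjusted p = 0.374, limma). Without compound mutant replicate 3 the second difference was 0.027. That library thus held the lowest *Aldh1a2* and the highest *Aldh1a3* value of all libraries. Its summed oral keratinization markers, at 158, were the highest as well, followed by 144 and 135 in *Cilk1*-/- replicates 4 and 2. In those libraries *Aldh1a3* was at 3.17 and 2.75, and the part of tissue makeup in its values was not tested.

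Summed on the linear scale with *Aldh1a1*, the third enzyme of the family, the retinaldehyde dehydrogenases reached 45.5, 67.0, 53.9 and 64.4 in wild type. The sums were 48.7, 30.4, 33.9 and 29.4 in *Cilk1*-/- and 39.0, 38.0 and 25.7 in the compound mutant. Every compound mutant sum and 3 of the 4 *Cilk1*-/- sums were below the lowest wild-type sum. *Aldh1a2* made up 85.1% to 93.1% of the sum in wild type, 70.7% to 85.7% in *Cilk1*-/- and 40.9% to 85.9% in the compound mutant. In compound mutant replicate 3, *Aldh1a3* made up 51.9%. *Aldh1a1* itself was low in all groups, at 0.29 to 0.58 in wild type and at 1.14, 0.59 and 1.52 in the compound mutant, with a difference of 0.62 (SE 0.171, adjusted p = 0.0567, limma). Without compound mutant replicate 2, the lowest of them, it was 0.86 (adjusted p = 0.00196, limma), but 0.59 without replicate 1 (adjusted p = 0.118, limma) and 0.40 without replicate 3 (adjusted p = 0.0896, limma).

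**Figure D3:**
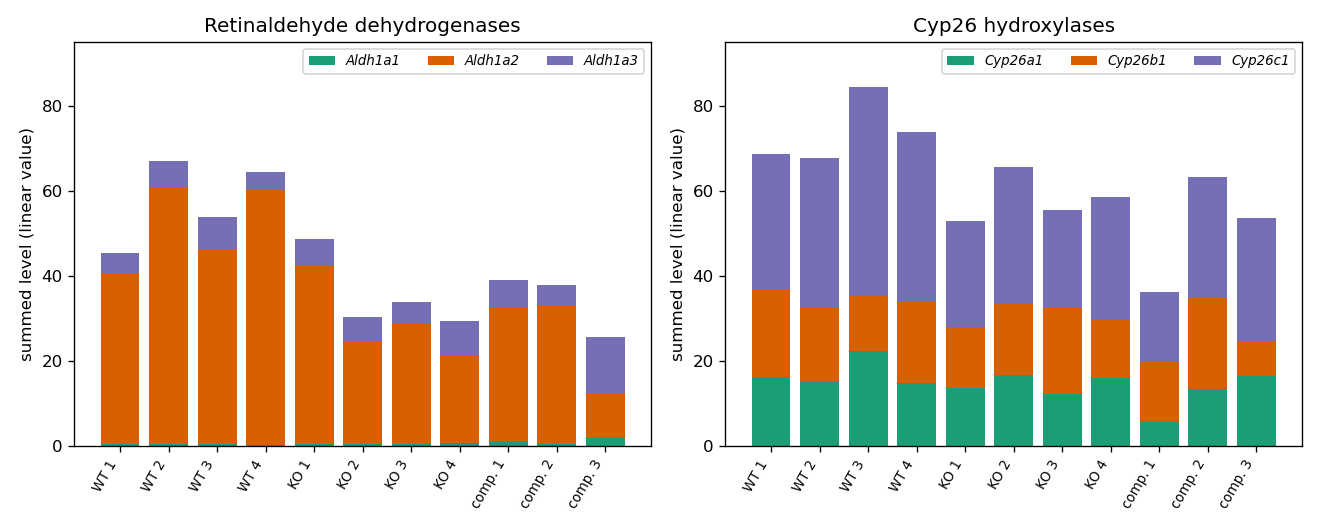
Summed linear level (y axis) of the 3 retinaldehyde dehydrogenases on the left and the 3 Cyp26 hydroxylases on the right in each of the 11 libraries (x axis), with colors for the single genes. *Aldh1a2* forms most of every left bar but that of compound mutant replicate 3, and *Cyp26c1* forms 41.5% to 58.3% of each right bar.

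*Cyp26b1*, which encodes a hydroxylase that inactivates retinoic acid, lies on chromosome 6 (84571414 to 84593908, minus strand). It was at 4.44, 4.19, 3.79 and 4.32 in wild type and at 3.95, 4.16, 4.42 and 3.88 in *Cilk1*-/-. The compound mutant libraries were at 3.90, 4.48 and 3.22, and thus included the highest and the lowest of the 11. The differences from wild type were -0.083 in *Cilk1*-/- (interval -0.62 to 0.45, adjusted p = 0.893, limma), against -0.31 for the compound mutant (interval -0.89 to 0.26, adjusted p = 0.462, limma). Without compound mutant replicate 3 the latter was 0.0095, so no direction can be given for this gene. Between the mutants it was -0.23 (adjusted p = 0.629, limma).

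The other hydroxylases of this family, *Cyp26a1* and *Cyp26c1*, are neighbours on chromosome 19 (37697798 to 37701536 and 37685581 to 37693398). *Cyp26c1* was the most abundant of the 3 in wild type, at 5.04, 5.18, 5.65 and 5.36. It was at 4.70, 5.05, 4.59 and 4.91 in *Cilk1*-/- and at 4.12, 4.89 and 4.90 in the compound mutant. All compound mutant libraries and 3 of 4 *Cilk1*-/- libraries were below the lowest wild-type library. The differences were -0.50 in *Cilk1*-/- (SE 0.188, adjusted p = 0.167, limma), against -0.67 for the compound mutant (SE 0.203, adjusted p = 0.0726, limma). Without compound mutant replicate 2 the second reached an adjusted p of 0.0374 (limma), and without replicate 1 it was -0.41 with an adjusted p of 0.168 (limma). When only wild type and *Cilk1*-/- were fitted, the adjusted p of the first was 0.0407 (limma), against 0.262 with the replicate block and 0.228 with the extraction text as a term. *Cyp26a1*, whose promoter element is printed above, was between 3.99 and 4.55 in wild type, between 3.71 and 4.14 in *Cilk1*-/- and at 2.74, 3.84 and 4.12 in the compound mutant, with differences of -0.22 (adjusted p = 0.691, limma) and -0.59 (adjusted p = 0.201, limma).

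The 3 Cyp26 genes summed to between 67.7 and 84.5 in wild type, between 52.9 and 65.5 in *Cilk1*-/- and to 36.1, 63.4 and 53.6 in the compound mutant on the linear scale. No mutant library reached the lowest wild-type sum. In both mutants the means of the *Aldh1a2* and *Cyp26c1* levels were therefore below wild type, but neither gene passed the threshold over all genes. Both mutants were set against 1 shared group of wild-type libraries. Compound mutant replicate 1, with the lowest Cyp26 sum at 36.1, also had the lowest dental epithelium marker sum, at 456. The part of tissue makeup in the Cyp26 values was not tested.

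*Crabp1*, a cytoplasmic binding protein of retinoic acid known from neural crest cells and neurons, lies on chromosome 9 (54764748 to 54773110, plus strand). It was at 4.72, 4.61, 4.94 and 4.33 in wild type and at 4.97, 4.77, 4.45 and 4.77 in *Cilk1*-/-. The compound mutant libraries were at 6.76, 4.78 and 6.19. Replicates 1 and 3 of the compound mutant were higher than all other libraries, whereas replicate 2 lay within the ranges of wild type and *Cilk1*-/-. The difference from wild type was 0.092 in *Cilk1*-/- (interval -0.66 to 0.84, adjusted p = 0.919, limma), against 1.26 for the compound mutant (SE 0.367, interval 0.45 to 2.07, adjusted p = 0.0649, limma). Between the mutants it was 1.17 (SE 0.367, adjusted p = 0.1002, limma). Without compound mutant replicate 2 these last differences were 1.83 (adjusted p = 0.00116, limma) and 1.73 (adjusted p = 0.00320, limma). Without replicate 1 they were 0.83 (adjusted p = 0.157, limma) and 0.74 (adjusted p = 0.227, limma). The order of the compound mutant libraries in *Crabp1* was that of their summed neuron markers, at 215, 62.2 and 34.4 in replicates 1, 3 and 2. It was also the reverse of their dental mesenchyme sums, at 400.5, 455 and 694 in the same replicates. Between wild type and *Cilk1*-/-, the neuron sums did not overlap (17.9 to 24.1 and 29.8 to 36.5), whereas the *Crabp1* values did. The part of neural or other tissue in the *Crabp1* values was not tested.

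*Crabp2*, a binding protein that hands retinoic acid to the receptors, lies on chromosome 3 (87948666 to 87953376, plus strand). It was at 5.73, 5.54, 5.74 and 5.51 in wild type and at 5.91, 6.14, 5.90 and 6.10 in *Cilk1*-/-. The compound mutant libraries were at 6.13, 6.01 and 5.64. All *Cilk1*-/- libraries were above all wild-type libraries, and compound mutant replicate 3 alone of the mutant libraries lay within the wild-type range. The difference was 0.38 in *Cilk1*-/- (SE 0.106, interval 0.15 to 0.62, adjusted p = 0.0817, limma), against 0.30 for the compound mutant (SE 0.114, adjusted p = 0.135, limma). In *Cilk1*-/- it was 0.32 among replicates 1 to 3 and 0.59 in replicate 4. The exact two-sided permutation p of *Cilk1*-/- was 0.0286 over all libraries and 0.125, the smallest possible, when genotypes were swapped only within replicate numbers. The adjusted p (limma) in *Cilk1*-/- was 0.0135 when only the wild-type and *Cilk1*-/- libraries were fitted, and it was 0.0245 without compound mutant replicate 3 and 0.0473 without replicate 1. It was 0.232 with the replicate block, 0.404 with the compound mutant in block 4 and 0.134 with the extraction text as a term (limma). The difference of the compound mutant from wild type was 0.44 without its replicate 3 (adjusted p = 0.0249, limma) and 0.20 without its replicate 1 (adjusted p = 0.347, limma). The mutants differed from each other by -0.087 (adjusted p = 0.685, limma), and by 0.055 without compound mutant replicate 3.

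Together the binding proteins summed to between 63.6 and 82.4 in wild type and between 79.8 and 96.0 in *Cilk1*-/- on the linear scale. In the compound mutant the sums were 176, 90.2 and 121. *Crabp2* made up most of the sum in wild type (63.9% to 69.9%) and in *Cilk1*-/- (66.1% to 73.9%). In compound mutant replicates 1 and 3, *Crabp1* made up most of it, up to 61.0%.

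*Rara*, the receptor subtype with the broadest expression in the embryo, lies on chromosome 11 (98927818 to 98974942, plus strand). It was at 4.75, 4.86, 4.65 and 4.84 in wild type, at 4.74, 4.60, 4.80 and 4.58 in *Cilk1*-/- and at 4.61, 4.93 and 4.51 in the compound mutant. The genotypes overlapped in each comparison. The differences from wild type were -0.094 in *Cilk1*-/- (interval -0.29 to 0.11, adjusted p = 0.608, limma), against -0.093 for the compound mutant (interval -0.31 to 0.12, adjusted p = 0.569, limma). Between the mutants the interval was -0.22 to 0.22.

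*Rarb*, a receptor gene known to be induced by retinoic acid, with the DR5 printed above, lies on chromosome 14 (16430839 to 16819156, minus strand). It was at 3.27, 3.46, 3.39 and 3.36 in wild type and at 3.64, 3.27, 3.38 and 3.40 in *Cilk1*-/-. The compound mutant libraries, at 3.64, 3.53 and 3.73, were above all wild-type libraries. The difference from wild type was 0.052 in *Cilk1*-/- (interval -0.12 to 0.22, adjusted p = 0.763, limma), against 0.26 for the compound mutant (SE 0.0845, interval 0.071 to 0.45, adjusted p = 0.0912, limma). The exact two-sided permutation p of the latter was 0.0286, and without compound mutant replicate 2 the difference was 0.31 (adjusted p = 0.0456, limma), against 0.21 without replicate 3 (adjusted p = 0.166, limma). Between the mutants it was 0.21 (adjusted p = 0.180, limma). Exons of *Rarb* overlap those of *Top2b* and Gm48162 on the other strand, and no source states that the counting used strand, so reads of these genes may not be told apart. *Top2b* differed from wild type by -0.038 in *Cilk1*-/- (adjusted p = 0.699, limma), and the corresponding value for the compound mutant was -0.13 (adjusted p = 0.131, limma).

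*Rarg*, the receptor subtype of skeletal and epithelial tissues, lies on chromosome 15 (102234938 to 102257517, minus strand). It was at 5.74, 5.84, 5.77 and 5.81 in wild type and at 5.97, 5.89, 5.96 and 5.91 in *Cilk1*-/-. The compound mutant libraries were at 5.92, 6.00 and 6.14. Every mutant library was above every wild-type library, and the mutants overlapped with each other. The difference from wild type was 0.14 in *Cilk1*-/- (SE 0.0488, interval 0.031 to 0.25, adjusted p = 0.143, limma), against 0.23 for the compound mutant (SE 0.0528, interval 0.11 to 0.34, adjusted p = 0.0349, limma). Within replicates 1 to 3 of *Cilk1*-/- and wild type it was 0.15, and in replicate 4 it was 0.10. Against the 1 wild-type library that shares the extraction text of the compound mutant, the difference was 0.21. The mutants differed by 0.087 (interval -0.030 to 0.20, adjusted p = 0.344, limma).

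The call of *Rarg* in the compound mutant was lost in many fits, although its difference stayed between 0.17 and 0.28 in all of them. With the replicate number as a block its adjusted p was 0.164 (limma), and with the compound mutant placed in the block of replicate 4 it was 0.654. It was 0.236 with the extraction text as a term, 0.142 when only wild type and the compound mutant were fitted and 0.0735 with each library centred on its median. Leaving out single libraries gave adjusted p between 0.0216 and 0.0884, and 3 of the 11 such fits kept it under 0.05. It was lost without any of the 4 wild-type libraries, without *Cilk1*-/- replicate 2, 3 or 4 and without compound mutant replicate 3. In *Cilk1*-/-, the fit of wild type and *Cilk1*-/- alone gave *Rarg* an adjusted p of 0.0326 (limma), whereas it was 0.339 with the replicate block, 0.505 with the compound mutant in block 4 and 0.216 with the extraction text as a term.

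On the linear scale the 3 receptors summed to between 87.1 and 94.2 in wild type, between 90.0 and 98.7 in *Cilk1*-/- and between 94.3 and 103 in the compound mutant. *Rarg* held 59.7% to 61.5% of this sum in wild type, 62.3% to 64.6% in *Cilk1*-/- and 61.2% to 67.1% in the compound mutant, while *Rarb* held 9.60% to 12.1% in any library. The receptor sums thus varied less between libraries than those of the synthetic enzymes, the hydroxylases or the binding proteins.

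A further 34 genes of vitamin A uptake, retinoid turnover, RXR partners, co-regulators and induced targets were considered, and 28 of them were listed. Of these, 0 had an adjusted p under 0.05 in any of the 3 comparisons (limma). At an unadjusted p under 0.05, 3 had lower and 3 higher means in *Cilk1*-/- than in wild type, against 20.7% of all genes in either direction. The counts were 5 and 2 for the compound mutant against wild type (26.7% of all genes) and 3 and 4 between the mutants (23.2% of all genes). Their median differences were -0.041, -0.0065 and 0.031. In the same order, the libraries did not overlap for 5, 2 and 4 of the 28 genes, against 20.9%, 18.0% and 17.0% of all genes. The map of the pathway by library shows that most of these genes stayed close to the wild-type mean, and that most of the largest departures were in compound mutant replicate 1.

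**Figure D4:**
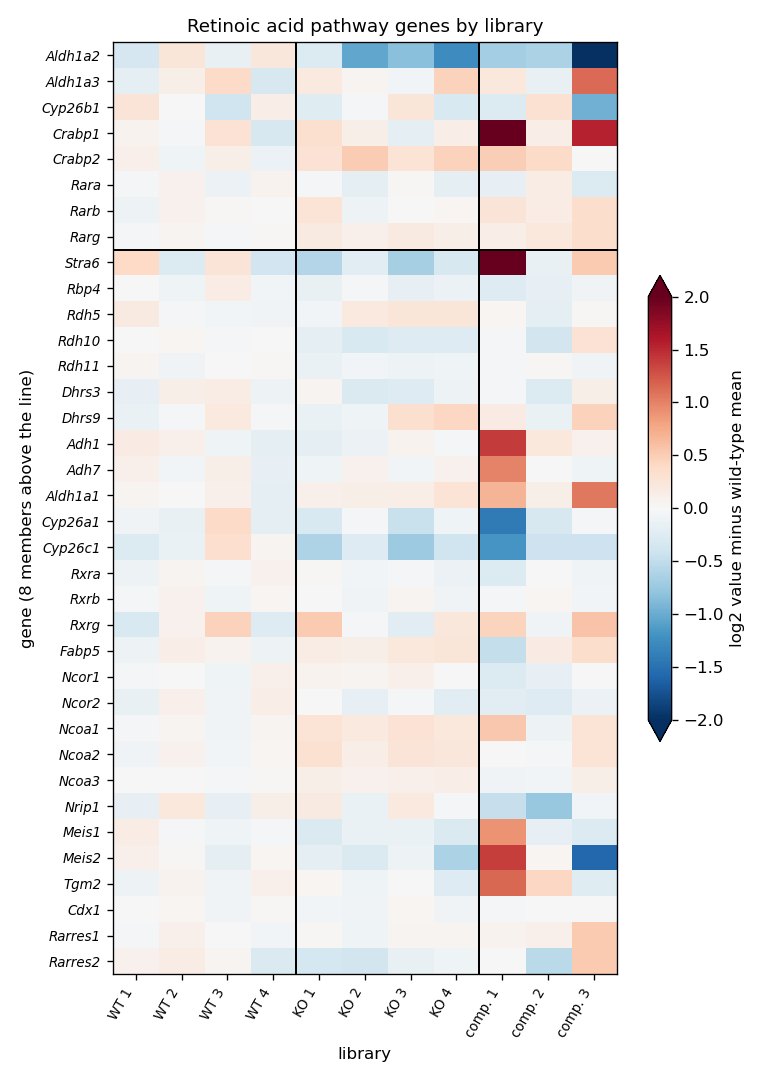
Difference of each library (x axis) from the wild-type mean, on the log2 scale (color, capped at 2 in either direction), for the 8 members above the line and 28 other pathway genes below it (y axis). Compound mutant replicate 1 differs most below the line, with *Stra6* and *Adh1* high and *Cyp26a1* and *Cyp26c1* low.

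Among genes that supply retinaldehyde, *Rdh10*, which encodes the dehydrogenase that makes retinaldehyde from retinol, was at 3.59, 3.64, 3.58 and 3.58 in wild type. It was at 3.41, 3.30, 3.34 and 3.34 in *Cilk1*-/-, where all libraries were lower, and at 3.57, 3.23 and 3.88 in the compound mutant. The difference of *Cilk1*-/- from wild type was -0.25 (SE 0.106, adjusted p = 0.211, limma), and that of the compound mutant -0.034 (adjusted p = 0.877, limma). In *Cilk1*-/-, it passed with an adjusted p of 0.00454 when only wild type and *Cilk1*-/- were fitted and of 0.0402 without compound mutant replicate 2 (limma), and it did not with the replicate block, where the adjusted p reached 0.532 with the compound mutant in block 4. *Stra6*, the cell surface receptor for retinol-binding protein, was at 3.67, 1.42 and 2.08 in the compound mutant. It was between 0.90 and 1.33 in *Cilk1*-/- and between 1.18 and 1.96 in wild type, a range that holds compound mutant replicate 2. The difference between the mutants was 1.28 (SE 0.427, adjusted p = 0.115, limma). Without compound mutant replicate 2 this was 1.77 (adjusted p = 0.0261, limma), and without replicate 1 it was 0.64 and missed the threshold. *Rdh10* differed between the mutants by 0.22 (adjusted p = 0.278, limma), by 0.38 without compound mutant replicate 2 (adjusted p = 0.0175, limma) and by 0.058 without replicate 3. The alcohol dehydrogenase gene *Adh1* was low, at 1.69, 0.49 and 0.37 in the compound mutant and between 0.082 and 0.36 in *Cilk1*-/-. Wild type, between 0.11 and 0.45, overlapped with the compound mutant. All compound mutant libraries were above all *Cilk1*-/- libraries, with a difference of 0.63 (adjusted p = 0.178, limma), which was 0.22 without compound mutant replicate 1.

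Among the co-regulators, all 3 coactivator genes of the steroid receptor coactivator family were higher in every *Cilk1*-/- library than in every wild-type library. They were 3 of the 5 genes, out of 28 listed, whose libraries did not overlap in this comparison, against 20.9% of all genes. The differences were 0.24 for *Ncoa1* (adjusted p = 0.236, limma), 0.23 for *Ncoa2* (adjusted p = 0.0997, limma) and 0.11 for *Ncoa3* (adjusted p = 0.195, limma). When only wild type and *Cilk1*-/- were fitted, the adjusted p of the 3 genes lay between 0.0101 and 0.0398 (limma). Leaving out 1 compound mutant library also gave adjusted p of 0.0447 for *Ncoa1* (replicate 2) and 0.0291 for *Ncoa2* (replicate 3). With the compound mutant in block 4 of the replicate block, the adjusted p of the 3 genes was 0.556, 0.446 and 0.564 (limma). In the compound mutant, the libraries of all 3 genes overlapped with those of wild type. Its differences from wild type were 0.24 for *Ncoa1*, 0.082 for *Ncoa2* and 0.0018 for *Ncoa3* (adjusted p = 0.217, 0.499 and 0.988, limma). *Ncor1*, a corepressor that binds receptors without ligand, was lower in all compound mutant than in all *Cilk1*-/- libraries, by a difference of -0.21 (adjusted p = 0.1002, limma), which was -0.28 without compound mutant replicate 3 (adjusted p = 0.0204, limma) and -0.14 without replicate 1. Of the induced genes, *Meis1*, a homeobox gene that responds to retinoic acid, was lower in all *Cilk1*-/- than in all wild-type libraries (difference -0.21, adjusted p = 0.621, limma), and *Rarres1* was higher in all compound mutant than in all *Cilk1*-/- libraries (difference 0.23, adjusted p = 0.208, limma), a difference that was 0.079 without compound mutant replicate 3.

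For the members that spanned at least 1 unit over the 11 libraries, the genes with the most similar profile were sought by the root mean square difference of mean-centred values over all 11 libraries. Those nearest to *Aldh1a2* were *Akap12* (0.227), *Pcdhac2* (0.263) and *Hmga2* (0.277). *Aldh1a3* was nearest to *Glis1* (0.127), *Sowahb* (0.131) and *Hopx* (0.132), and *Cyp26b1* to *Pgf* (0.112), *Igf2bp1* (0.144) and *Hs6st2* (0.149). *Crabp1* was nearest to D930020B18Rik (0.155), *Plac9a* (0.210) and *Tubb3* (0.215). *Tubb3* is 1 of the 8 neuron markers summed above, so its likeness and the neuron sums are not separate observations. The profiles share their libraries, so they are a description of these 11 samples.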

How the data were processed

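Gene expression was measured by poly-A RNA sequencing in 11 libraries of E14.5 maxillary molars. Per the submitters' processing notes, reads were handled with HISAT2 2.0.5 and featureCounts 1.5.0-p3 on mm10, and the authors calculated FPKM from counts and gene lengths. The deposited values are on a log2 scale, near log2(value + 1) of probably FPKM, but changed by some further step, since 257 genes have a value below 0, which log2(FPKM + 1) cannot give. Linear values were taken as 2 to the power of the value, less 1, with results below 0 set to 0 in sums. The log2 step, any adjustment between libraries and strand use are not given in the sources used here. Sums of linear values were 339971 to 364616 per library. The depth is unknown, so precision rests on the spread between libraries. Nothing states that replicates came from separate litters, and p-values measure the spread between these samples.

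All 16755 genes were fitted with limma 3.58.1 in R 4.3.3 (lmFit, eBayes with trend and robust), in one fit of the 3 genotypes with no covariate, no filter on low values and Benjamini-Hochberg adjustment over all genes. Calls needed an adjusted p under 0.05 and a fold of at least 1.5. The fit was tested on data simulated with independent libraries, which does not cover the dependence between same-numbered libraries described below. Single genes were also compared with two-sided exact permutation tests over libraries. The members and lists were chosen with earlier results of these data known. The genes named are the 8 members, other pathway genes that were called or whose groups did not overlap and the 3 most similar genes of each member spanning at least 1 unit. *Cyp26a1*, *Top2b*, Gm48162, *Rxrg* and *Bco1* were named beyond that rule, for a sum, for an overlap or for a promoter element. So were *Ick*, the deleted gene, and *Cdh1*, a cell type marker. A gene of the planned pathway list, 1 in all, is not reported here and was left out of the list's counts.

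The labels number replicates in each genotype. Deviations from the genotype mean of same-numbered wild-type and *Cilk1*-/- libraries correlated at -0.74, -0.89, -0.85 and -0.79 over all genes, so these libraries are not independent. The genes at exactly 0 also matched in number within each pair (55, 12, 17 and 0). If the values were adjusted within pairs, which the sources do not give, SDs and SEs of these genotypes are too small. Through the common estimate of the spread, so are the SEs of the compound mutant comparisons. Fits with the number as a block are given where they change a call. Alternatives were this block, the extraction text of the labels as a term (replicates 1 to 3 of wild type and *Cilk1*-/- against the rest), other scalings, thresholds and a pseudocount of 0.1, and leaving out each library. Positions came from GENCODE vM21 and promoters from RefSeq (GRCm38.p6). Plots were made with matplotlib 3.10.9 (Python 3.11.15).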

Additional observations from a re-analysis of the deposited data

Results flagged for a closer look

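Among 38 groups of 4 libraries tested over 19 genes, 1 held a library far from the others. *Rdh10* was at 3.64 in wild-type replicate 2, and the nearest of the other 3 wild-type libraries was at 3.59, a gap of 0.932 of the whole range, past Dixon's 95% critical value. Chance alone gives about 1 such group in 20, and the gap itself is small on the log2 scale.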

How the results depend on the processing

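Counts over all genes moved most. In *Cilk1*-/- against wild type, the 62 genes called became 4 with the replicate block (also with the compound mutant in block 4), 37 with the extraction text as a term, 130 in a fit of the 2 genotypes alone, 123 with a pseudocount of 0.1, 409 with no fold minimum and 126 at an unadjusted p. In the compound mutant against wild type, the 209 became 26, 0, 18, 34, 547, 1102 and 499 in that order, with both placements of the block given first. Between the mutants, the 91 became 2, 0, 1, 1, 294, 558 and 350. Leaving out single libraries gave 15 to 95, 80 to 671 and 36 to 360.

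Of the 8 members, 0 had an adjusted p under 0.05 in *Cilk1*-/- against wild type, and 3 did when the 2 genotypes were fitted alone (0 to 2 without single libraries). In the compound mutant the count was 1, and it was 0 with either replicate block, with the extraction text, with the 2 genotypes alone and with median centring (0 to 4 without single libraries). Between the mutants it was 0 (0 to 1). Quantile normalization, a pseudocount of 0.1, a minimum mean of 1 and eBayes without trend and robust kept the member counts.

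No difference that passed reversed. Scalings and terms reversed *Rarres1* in *Cilk1*-/- (-0.013 with quantiles, -0.0062 with median centring), *Ncoa3* in the compound mutant (-0.021 with block 4 and with the extraction text, -0.010 with quantiles, -0.018 with median centring), and, between the mutants, *Rara* (-0.0038 with the replicate block, -0.023 with quantiles, -0.0011 with median centring) and *Ncoa1* (0.0098 with quantiles).

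Leaving out single libraries reversed, in *Cilk1*-/-, *Cyp26b1* (-0.21 to 0.0030), *Crabp1* (-0.015 to 0.19), *Rarb* (-0.021 to 0.10) and *Rarres1* (-0.0095 to 0.047). In the compound mutant it reversed *Cyp26b1* (-0.62 to 0.0095), *Rdh10* (-0.19 to 0.13), *Ncoa2* (-0.0100 to 0.13), *Ncoa3* (-0.059 to 0.037) and *Meis1* (-0.22 to 0.37). Between the mutants it reversed *Aldh1a2* (-0.58 to 0.20), *Aldh1a3* (-0.13 to 0.51), *Cyp26b1* (-0.54 to 0.092), *Crabp2* (-0.19 to 0.055), *Rara* (-0.12 to 0.088), *Cyp26c1* (-0.30 to 0.085), *Ncoa1* (-0.16 to 0.17) and *Meis1* (-0.0090 to 0.58). The cause of these changes was not tested. With no counts at hand, the limit set by depth is unknown.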
